A study of Mus musculus with 16 samples.

Results

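Whole skin of wild-type mice on day 1 of 4-hydroxytamoxifen treatment was compared with wild-type skin on day 0. The 6 arrays of these 2 groups, 3 of each, were chosen by their titles out of 16 arrays in the series. The day 1 group came from wild-type C57BL/6 mice given 4-hydroxytamoxifen for 1 day, and the day 0 group from wild-type C57BL/6 mice given it for 0 days. Further arrays are used below for comparison, from wild-type skin at day 7 (2 arrays) and from transgenic K14deltaNB-cateninER skin of line D2 at day 1 (3 arrays) and day 0 (2 arrays). The 3 transgenic day 7 arrays are not compared here. All 16 arrays enter the scaling, the filter, the choice of probe sets and the estimate of spread behind the p-values. In the transgenic line the keratin 14 promoter drives, in basal keratinocytes, a truncated β-catenin fused to a hormone-binding part of the oestrogen receptor. Wild-type skin lacks this transgene, so the comparison holds the agent, the handling and the passing of a day, which cannot be told apart because no group given vehicle alone is analysed here. RNA was taken from total skin, and the labels do not state the ages of the mice. They name a single mouse for day 1 replicate 3 and for both wild-type day 7 arrays, and mice in the plural, with no number, for the other arrays used here. If some arrays hold pooled animals and others 1 mouse, the spread within groups and the p-values mix both kinds of sample, and they measure only the spread between these samples.

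Skin holds a stratified epidermis with its hair follicles, a dermis of fibroblasts and matrix, vessels, nerves, fat, a thin sheet of skeletal muscle, and resident immune cells. Macrophages and monocytes enter injured or irritated skin along chemokine gradients, take up debris and shape the matrix made by fibroblasts. Keratinocytes divide in the basal layer, attach to the basement membrane through hemidesmosomes and to each other through desmosomes, and build the cornified envelope as they move outwards. 4-Hydroxytamoxifen is the active form of tamoxifen, which binds oestrogen receptors and is used in mice to switch on receptor fusion proteins.

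Of 9058 genes tested with limma, 2023 differed between day 1 and day 0 at a Benjamini-Hochberg adjusted p under 0.05, which is 22.3%. In 911 genes (10.1%) the level was higher at day 1 and in 1112 (12.3%) it was lower. Of 167 genes past the threshold with a change of at least 2-fold (1.84%), 139 (1.53%) were higher and 28 (0.309%) were lower. Changes are log2 differences of scaled intensity plus 32, so folds of dim genes are understated. In 41% of genes all arrays of one group lay above all of the other. Correlations between arrays were 0.979 to 0.985 within the groups and 0.941 to 0.969 between them, and the first principal component of the 6 arrays, with 60.6% of the variance, separated day 1 from day 0. When the deposited intensities were used with no further scaling, 469 genes passed, 384 of them higher, and 84 of the 1112 falls and 379 of the 911 rises were still called, none with the opposite sign. Leaving out day 1 replicate 1 left 1176 calls and leaving out day 0 replicate 2 left 1220. The 3′ to 5′ signal ratio of Gapdh, a sign of RNA quality, was 0.959 to 1.00 at day 1 and 0.965 to 1.26 at day 0, highest on day 0 replicate 2, and its part in the results was not tested. Defining genes of skin were bright, with Krt14 at 6730.3 ± 574 in day 1 skin and 8547 ± 250 in day 0 skin, and Krt10 at 12965 ± 1281 in day 1 skin and 15065 ± 965 in day 0 skin (SD, n = 3 each). Esr1, part of whose sequence is in the transgene, was dim in both groups, at 36.5, 15.9 and 45.0 in day 1 skin, against 49.9, 23.7 and 13.4 in day 0 skin.

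The largest rise was that of Klk1, tissue kallikrein, a serine protease that frees kinins from their precursor. Klk1 read 1634, 1763 and 1572 in day 1 skin, against 2.02, 3.04 and 40.9 in day 0 skin. All day 1 arrays lay far above all day 0 arrays, and day 0 replicate 3 stood apart from the others of its group. The log2 change was 5.25 ± 0.26 (SE, adjusted p = 1.44e-08), and the other probe sets of the gene rose by 4.87 and 5.08. Neighbouring paralogs rose with it. Klk1b21 read 188, 362 and 188 in day 1 skin, against 49.3, 35.3 and 53.4 in day 0 skin, a change of 1.78 ± 0.32 (SE, adjusted p = 0.00171). Klk1b24 read 209, 224 and 154 in day 1 skin, against 51.7, 38.5 and 50.1 in day 0 skin, a change of 1.52 ± 0.21 (SE, adjusted p = 0.000332). The groups did not overlap in either gene, as in 41% of all genes. Klk1b27 averaged 35.3 at day 1 and 3.52 at day 0 and did not pass (log2 change 0.90, adjusted p = 0.0631). It is named here after its values were seen. Of the 12 probe sets of this family with 1 gene symbol, 6 lay below the filter on dim signal, among them those of 5 paralogs, with day 1 means of 1.87 to 38.3 and day 0 means of 1.75 to 35.3. Kallikreins of the outer epidermis, where some cut the bonds between cornified cells, moved the other way. Klk7 changed by -0.34, Klk8 by -0.66 and Klk11 by -0.39, all past the threshold, but none of these falls passed without further scaling, and Klk7 passed only with all arrays or without day 0 replicate 3 or day 1 replicate 2. In the kallikrein list 3 of 9 genes tested thus rose and 3 fell, against 10.1% and 12.3% of all genes.

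The promoters of the kallikreins that rose are shown because the genes are close copies of one another, in the same region of chromosome 7. Probes for one may read transcripts of another, and the part of such cross-hybridisation in these values was not tested. Each window is 300 bases of RefSeq sequence on GRCm38.p6, 250 before the annotated start and 50 after it, written 5′ to 3′. Most of it lies before the start, so it cannot show whether probes read another gene. The longest run of letters that all 3 share, 20 bases, is in capitals. It begins at -151 from the annotated start in Klk1, -192 in Klk1b21 and -227 in Klk1b24.
Klk1 (chr7:44225110-44225409, plus strand): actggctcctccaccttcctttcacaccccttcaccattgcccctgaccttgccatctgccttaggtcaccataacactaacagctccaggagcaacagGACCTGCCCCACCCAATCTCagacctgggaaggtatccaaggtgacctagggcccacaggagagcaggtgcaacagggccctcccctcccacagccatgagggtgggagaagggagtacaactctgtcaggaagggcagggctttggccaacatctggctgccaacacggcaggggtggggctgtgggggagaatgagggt
Klk1b21 (chr7:44102042-44102341, plus strand): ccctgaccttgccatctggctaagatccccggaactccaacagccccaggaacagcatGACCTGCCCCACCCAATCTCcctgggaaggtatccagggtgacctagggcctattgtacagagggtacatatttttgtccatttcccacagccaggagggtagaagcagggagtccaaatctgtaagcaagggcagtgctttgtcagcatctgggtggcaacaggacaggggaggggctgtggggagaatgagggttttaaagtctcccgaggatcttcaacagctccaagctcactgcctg
Klk1b24 (chr7:44187986-44188285, plus strand): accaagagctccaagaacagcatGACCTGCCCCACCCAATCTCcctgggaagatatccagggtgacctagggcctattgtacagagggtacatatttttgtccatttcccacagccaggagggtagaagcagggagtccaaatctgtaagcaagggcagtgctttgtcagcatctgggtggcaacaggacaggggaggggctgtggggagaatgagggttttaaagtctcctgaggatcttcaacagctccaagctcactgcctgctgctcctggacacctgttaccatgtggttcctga
In a pairwise alignment with free ends the windows of Klk1b21 and Klk1b24 matched at 97.7% of 265 aligned bases. Klk1 matched Klk1b21 at 82.9% of 251 bases and Klk1b24 at 82.4% of 216 bases.

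Chemokines and growth factors that act on myeloid cells were among the next largest rises. Ccl2, Ccl7 and Ccl12 are neighbouring chemokine genes whose products attract monocytes through Ccr2. Ccl2 read 423, 510.2 and 962 in day 1 skin, against 66.8, 83.7 and 110.2 in day 0 skin, a change of 2.41 ± 0.28 (SE, adjusted p = 7.92e-05). Ccl12 read 533, 708 and 770 in day 1 skin, against 91.6, 86.3 and 124 in day 0 skin, a change of 2.40 ± 0.14 (SE, adjusted p = 1.06e-07). Ccl7 changed by 2.37 ± 0.23 (SE, adjusted p = 2.76e-05). In all 3 genes every day 1 array was above every day 0 array, where 41% of all genes had groups that did not overlap in either direction. Of 20 chemokines tested, 7 rose and 1 fell, against 10.1% and 12.3% of all genes. Among the others that rose were Ccl9 (0.97, and 1.91 by its other probe set) and Ccl8 (0.87), both bright already at day 0, at 2207 and 3679. Ccl9 lost its call without day 0 replicate 2 or day 1 replicate 1, and Ccl8 without either of these, day 0 replicate 3 or day 1 replicate 2. With single arrays left out 3 to 6 chemokines rose, with 3 without day 0 replicate 2. The fall was that of Cxcl14, a chemokine made by resting epithelium, which read 346, 370.5 and 399 in day 1 skin, against 695, 628 and 954 in day 0 skin (log2 change -0.95 ± 0.16 SE, adjusted p = 0.00123).

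Receptors mostly rose where they passed, and growth factors were split. Of 22 chemokine and cytokine receptors 7 rose and 1 fell, against 10.1% and 12.3% of all genes. Ccr1, a receptor of the Ccl3 and Ccl9 type of ligand, changed by 1.36 ± 0.37 (SE, adjusted p = 0.0168) and Ccr2 by 1.00 ± 0.21 (SE, adjusted p = 0.0042). Ccr1 lost its call without day 1 replicate 1 or 3 or day 0 replicate 1 or 2. Csf2ra, a chain of the receptor for granulocyte-macrophage colony-stimulating factor, rose by 0.98, and the interleukin 4 receptor Il4ra by 0.88. Of 23 cytokines and growth factors 5 rose and 6 fell, against the same shares of all genes. Pgf, placental growth factor, a ligand of the vascular endothelial growth factor family, read 175, 255 and 332 in day 1 skin, against 31.8, 6.28 and 7.29 in day 0 skin (log2 change 2.60 ± 0.24 SE, adjusted p = 1.84e-05). Csf1, the main growth factor of macrophages, read 2249.6, 2285 and 2234 in day 1 skin, against 872, 672 and 872 in day 0 skin (log2 change 1.46 ± 0.15 SE, adjusted p = 4.97e-05). Tgfb1 rose by 1.21. The falls were of Tgfb3 (-0.62) and of ligands of the epidermal growth factor receptor, Ereg (-0.86) and Btc (-0.48), among others. Csf1, Tgfb1 and Ereg stayed past the threshold under all 16 alternatives tried, and Pgf under the 15 in which it was bright enough to be tested. Without day 0 replicate 2, 4 receptors and 3 cytokines and growth factors rose, and without day 1 replicate 1, 2 cytokines and growth factors fell, with Btc among those no longer called.

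**Figure D1:**
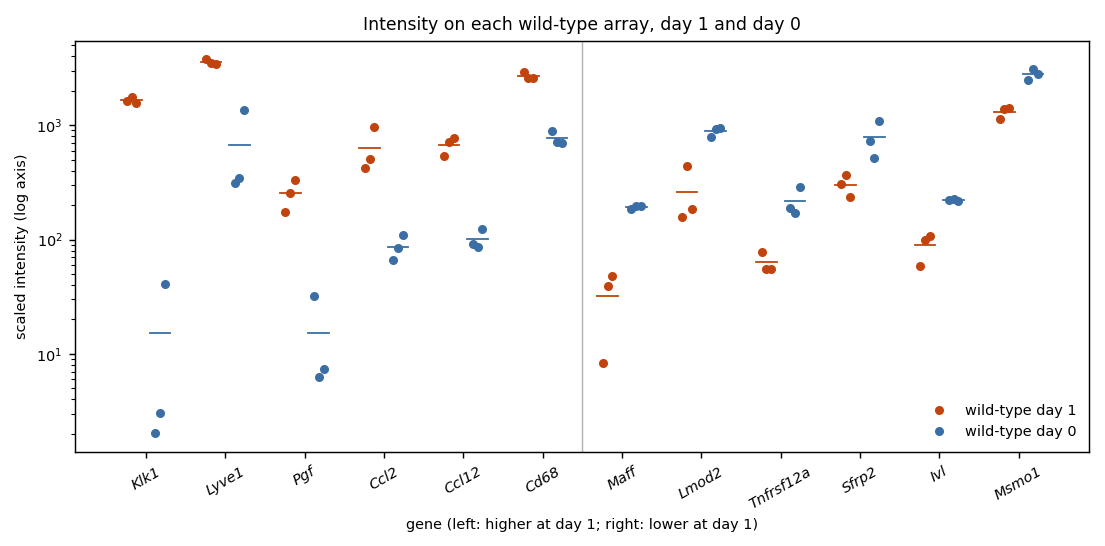
Scaled intensity (log axis) of 12 genes on each of the 3 wild-type day 1 arrays (left of each pair) and 3 day 0 arrays (right), with group means as lines. In all 12 genes the groups do not overlap, as in 41% of all genes. The largest rises and falls to name were picked only among genes without overlap. Klk1 shows the widest gap, at 1656 on average at day 1 and 15.3 at day 0.

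Macrophage and monocyte markers moved as a group. Of 24 genes tested 20 rose and 0 fell, at a median log2 change of 1.10, where the median over all 9058 genes was -0.02 and 10.1% rose. Their summed intensity was 48157 to 53339 in day 1 skin, against 24365 to 28221 in day 0 skin, so every day 1 array was above every day 0 array. Cd68, a lysosomal protein of macrophages, read 2924, 2567 and 2572 in day 1 skin, against 893, 717 and 698 in day 0 skin (log2 change 1.77 ± 0.22 SE, adjusted p = 0.000134). Mrc1, the mannose receptor, read 6110.3, 6144 and 6276 in day 1 skin, against 2468, 2092 and 2651 in day 0 skin (log2 change 1.36 ± 0.17 SE, adjusted p = 0.000177). Fcgr1, the high-affinity receptor for immunoglobulin G, changed by 1.39 ± 0.18 (SE, adjusted p = 0.000189). Ms4a6d rose by 1.55, Aif1, a calcium-binding protein of macrophages, by 1.31, and the scavenger receptor Msr1 by 1.26. With single arrays left out 16 to 21 of the markers rose. In bulk skin a change in the number of cells of a type and a change in RNA per cell cannot be told apart.

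Genes used by phagocytes rose beside the markers, some of which stand in more than 1 list. Of 13 complement genes 8 rose and 0 fell (median 0.84, summed intensity 24116 to 26434 in day 1 skin, against 13885 to 16486 in day 0 skin). C1qa, C1qb and C1qc, the chains of C1q that starts the classical pathway, changed by 1.38, 1.28 and 1.16, and Cfp, properdin, by 1.58 ± 0.17 (SE, adjusted p = 5.7e-05). C5ar1, the receptor of the anaphylatoxin C5a, read 581, 478 and 391 in day 1 skin, against 162, 79.5 and 157 in day 0 skin (log2 change 1.67 ± 0.26 SE, adjusted p = 0.000624). Of 23 genes of lysosomes and phagocytosis 15 rose and 1 fell (median 0.53), where 10.1% and 12.3% of all genes did. The signalling chain Fcer1g read 3373, 2685 and 3336 in day 1 skin, against 1107, 829 and 1042 in day 0 skin, and the lysosomal protease legumain, Lgmn, read 3420, 3022 and 3481 in day 1 skin, against 1084, 1094 and 1279 in day 0 skin. Trem2, a lipid receptor of phagocytes, read 180.3, 102 and 114 in day 1 skin, against 11.1, 11.8 and 7.49 in day 0 skin (log2 change 1.93 ± 0.44 SE, adjusted p = 0.00655). The member that fell was Gpnmb, a membrane glycoprotein of phagocytes and melanocytes, which changed by -1.11 ± 0.23 (SE, adjusted p = 0.00399). Further myeloid genes among the 20 largest rises were Chil3, a chitinase-like protein (206, 68.6 and 95.6 in day 1 skin, against 0.90, 2.85 and 2.50 in day 0 skin), the lectin Cd209f (1.87), the secreted scavenger protein Cd5l (1.82), the oxidase subunit Ncf1 (1.78), Ms4a6c (1.72) and Ms4a8a (1.66).

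Markers of other immune cells gave fewer calls, where 10.1% of all genes rose and 12.3% fell. Of 7 neutrophil markers 3 rose and 0 fell, and all 7 changed by more than 0 (median 0.64). Their sums were 3318 to 3592 in day 1 skin, against 2651 to 2834 in day 0 skin. With single arrays left out 2 to 4 rose, and 7 more markers on the array lay below the filter. Fpr2, a formyl peptide receptor, changed by 1.14 and Padi4, an enzyme that converts arginine in proteins to citrulline, by 1.43. Of 10 T and NK cell markers 0 passed in either direction, with sums of 3568 to 4241 in day 1 skin, against 3701 to 4336 in day 0 skin, which overlap, and 9 more were below the filter. Dendritic and Langerhans cell markers gave 2 rises, among them the costimulatory Cd86 (1.02), and 1 fall, of Epcam (-0.48), an adhesion protein of Langerhans cells that keratinocytes of the follicle also make, in 15 genes. Mast cell markers gave 1 rise, of Kit, and 1 fall, of the chymase Cma1, in 6 genes, and markers of B and plasma cells gave 1 fall, of Sdc1, in 5. Sdc1 is also made by keratinocytes. Sdc1 lost its call without day 1 replicate 1, as did Cma1 and Kit, and Cma1 and Kit lost it without day 0 replicate 2 too, Kit without day 0 replicate 1 and Cma1 without day 1 replicate 2.

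Acute-phase genes passed in both directions, while the oxidative stress and interferon lists gave few calls. Lrg1, a secreted glycoprotein of the acute phase, read 2999, 2311 and 2176 in day 1 skin, against 572, 299 and 1066 in day 0 skin (log2 change 2.05 ± 0.29 SE, adjusted p = 0.000374), and haptoglobin, Hp, which binds free haemoglobin, changed by 1.03 ± 0.23 (SE, adjusted p = 0.00557). Orm1, a plasma carrier protein, changed by -0.61 ± 0.09 (SE, adjusted p = 0.000642). In this list 3 of 8 genes rose, the third being Chil3, and 2 fell, against 10.1% and 12.3% of all genes. Hmox1, which breaks down haem, read 1789.7, 1591 and 1456 in day 1 skin, against 696, 568 and 574 in day 0 skin (log2 change 1.35 ± 0.15 SE, adjusted p = 5.7e-05). It was 1 of 2 rises, beside Akr1b8 (0.82), in 20 genes of oxidative and metal stress, a share near the 10.1% of all genes. In the same list 1 gene fell, Txnrd1 (-0.34), a reductase of thioredoxin. Txnrd1 lost its call with any single array left out, under quantile normalization and without further scaling. Its other probe set changed by 0.44 and did not pass. Of 25 interferon-response genes 1 rose, Oas1a (0.73), and 0 fell, against 10.1% and 12.3% of all genes, and 0 to 4 rose with single arrays left out, Oas1a being lost without day 0 replicate 2 or day 1 replicate 1 or 3.

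**Figure D2:**
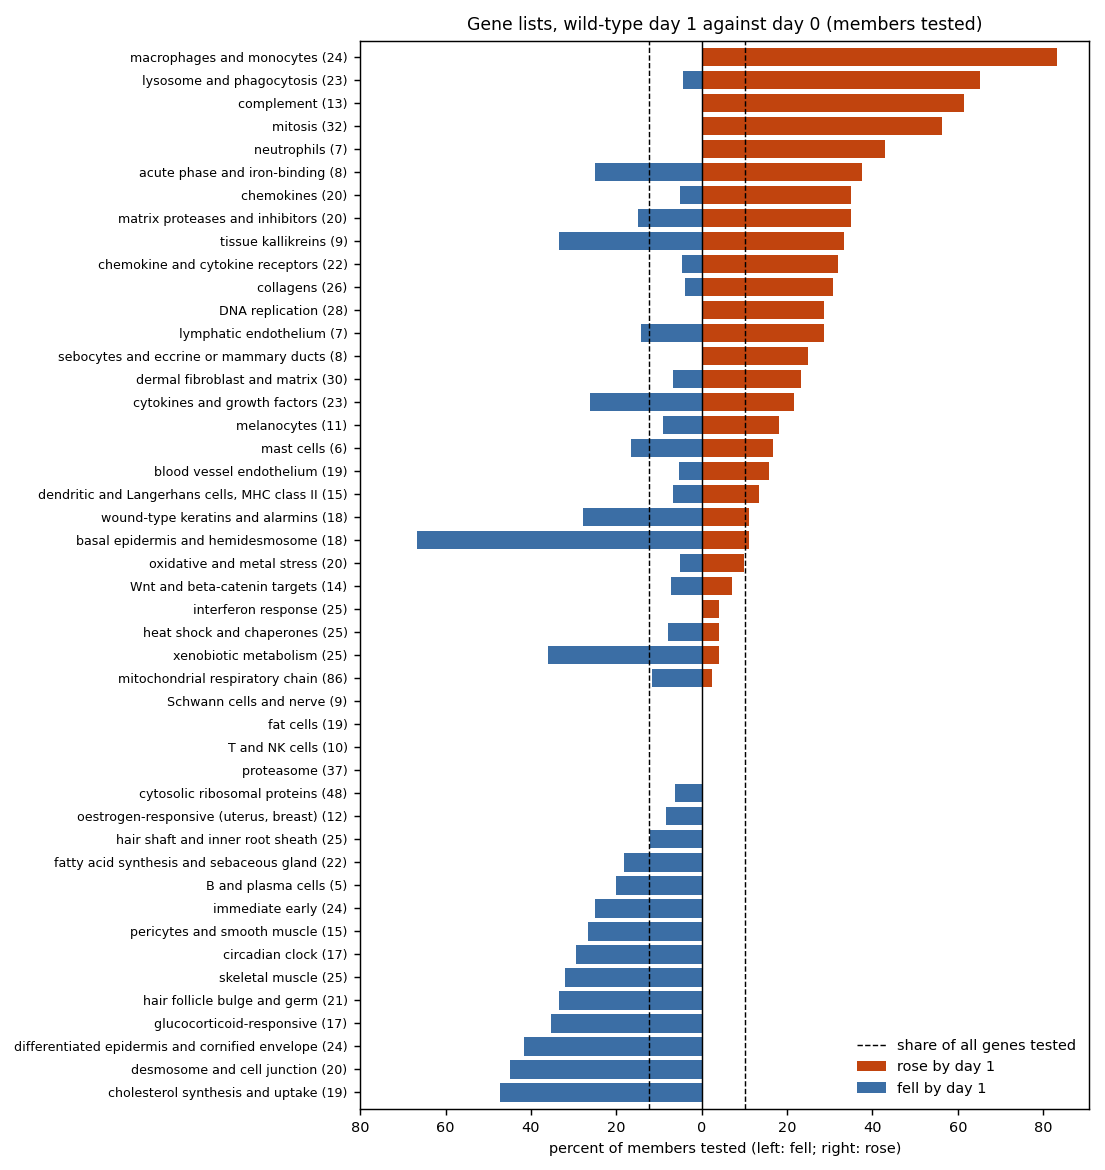
Percent of the tested members of each of 46 gene lists with a tested member that rose (right) or fell (left) by day 1, with the number tested in brackets and dashed lines at the share of all 9058 genes, 10.1% higher and 12.3% lower. Macrophage markers stand furthest right, with 20 of 24 genes, and genes of the basal epidermis furthest left, with 12 of 18.

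Genes of dermal cells and of the matrix gave a moderate number of rises, where 10.1% of all genes rose and 12.3% fell. Of 30 genes of fibroblasts and their matrix 7 rose and 2 fell, and the median of 0.06 was near that of all genes. Prrx1 was 1 of the 2 falls, but its other probe sets changed by 0.24 and 0.46, the second past the threshold. Pdgfra, a growth factor receptor that marks fibroblasts, read 2974, 2994 and 2836 in day 1 skin, against 1341, 1249.5 and 1454 in day 0 skin (log2 change 1.11 ± 0.12 SE, adjusted p = 5.32e-05). Thbs2, a matricellular protein, changed by 1.29 ± 0.18 (SE, adjusted p = 0.000293), Vcan, the proteoglycan versican, by 1.13 ± 0.13 (SE, adjusted p = 5.7e-05), and the hyaluronan synthase Has2 by 1.10 ± 0.24 (SE, adjusted p = 0.00486). Of 26 collagens and collagen-modifying enzymes 8 rose and 1 fell. Col5a3 (0.98), Col5a2 (0.70) and the enzymes Plod1 (0.91), P4ha2 (0.80) and Loxl1 (0.75) rose. Without day 0 replicate 2, 5 rose. The fall was that of Col7a1, the anchoring fibril collagen made largely by keratinocytes (-0.51), which lost its call without day 0 replicate 2 or day 1 replicate 1. Of 20 matrix proteases and inhibitors 7 rose and 3 fell. Adam12 read 551, 499.6 and 532 in day 1 skin, against 137, 137 and 169 in day 0 skin (log2 change 1.65 ± 0.14 SE, adjusted p = 5.33e-06), Adamts1 changed by 1.27 and Mmp19 by 1.40. Prrx2, a homeobox gene of fibroblasts, was among the 20 largest rises, at 331, 489 and 386 in day 1 skin, against 93.5, 85.5 and 127 in day 0 skin (log2 change 1.69 ± 0.15 SE, adjusted p = 1.43e-05). Against these, Sfrp2, a secreted Wnt antagonist, read 304, 369 and 236 in day 1 skin, against 735, 513 and 1097 in day 0 skin (log2 change -1.24 ± 0.24 SE, adjusted p = 0.00227), and the small matrix proteins Mgp (-1.10) and Omd (-1.11) fell.

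Lyve1, a hyaluronan receptor of lymphatic endothelium and of some macrophages, was among the 20 largest rises. It read 3768, 3541 and 3431 in day 1 skin, against 315, 349 and 1365 in day 0 skin (log2 change 2.66 ± 0.37 SE, adjusted p = 0.000332), with day 0 replicate 3 well above its group, and its other probe set changed by 2.61. Of 7 lymphatic markers 2 rose, Lyve1 and Stab1 (1.33), a scavenger receptor that macrophages share, and 1 fell, Reln (-0.39). Among 19 markers of blood vessel endothelium 3 rose, Aplnr (0.88), Plvap (0.87) and Eng (0.43), and 1 fell, Vwf (-0.44). In all genes tested 10.1% rose and 12.3% fell. Reln and Eng each lost their calls without any of 5 of the 6 arrays (all but day 1 replicate 3 for Reln, and all but day 0 replicate 1 for Eng), and Vwf without day 0 replicate 1 or day 1 replicate 2. The endothelin receptor Ednrb, made by melanocytes and other cells, read 784, 666 and 529.5 in day 1 skin, against 182, 171 and 179 in day 0 skin (log2 change 1.71 ± 0.19 SE, adjusted p = 5.7e-05).

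Of 32 mitosis genes 18 rose and 0 fell, against 10.1% and 12.3% of all genes, at a median of 0.61, and 31 of 32 had a change above 0. Mad2l1, of the spindle checkpoint, read 420.4, 358 and 458 in day 1 skin, against 218, 146 and 135 in day 0 skin (log2 change 1.18 ± 0.20 SE, adjusted p = 0.00113). Ube2c, an enzyme that marks mitotic proteins for destruction, changed by 1.04 ± 0.21 (SE, adjusted p = 0.00284), Birc5, survivin, by 0.91 ± 0.15 (SE, adjusted p = 0.0009), and the kinase gene Aurkb by 0.79 ± 0.14 (SE, adjusted p = 0.0012). The kinesin Kif22 rose by 0.87 and topoisomerase Top2a by 0.85. Mki67, the usual mark of cycling cells, read 611, 568 and 643 in day 1 skin, against 367, 606 and 464 in day 0 skin and did not pass (log2 change 0.35 ± 0.13 SE, adjusted p = 0.0649). Mitosis sums were 11762 to 15061 in day 1 skin, against 10687 to 11908 in day 0 skin, and the lowest day 1 array lay below the highest day 0 array. With single arrays left out 13 to 21 of the 32 rose, with 13 without day 1 replicate 1. Of 28 DNA replication genes 8 rose and 0 fell (median 0.24), with Mcm5 at 0.71, Mcm10 at 0.70 and Mcm3 at 0.52, all parts of or partners of the replicative helicase. Without further scaling 13 mitosis genes and 2 replication genes rose, and 5 replication genes rose without day 0 replicate 1.

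Promoters of mitosis genes are shown because members of this list moved together and many hold 2 known elements of cell cycle promoters. They are the CCAAT box, searched as CCAAT, and the cell cycle homology region, searched as TTTGAA, on both strands, neither motif holding the other. In the windows below, 300 bases around the RefSeq start on GRCm38.p6 that end 50 bases after it, capitals mark these letters on either strand.
Ube2c (chr2:164769679-164769978, plus strand): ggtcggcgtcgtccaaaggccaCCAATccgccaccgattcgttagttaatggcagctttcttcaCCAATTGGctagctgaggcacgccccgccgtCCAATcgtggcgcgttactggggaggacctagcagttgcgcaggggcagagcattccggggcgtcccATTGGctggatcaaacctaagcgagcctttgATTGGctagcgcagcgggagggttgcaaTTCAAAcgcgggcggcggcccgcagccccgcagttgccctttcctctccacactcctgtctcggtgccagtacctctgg
Top2a (chr11:99024140-99024439, minus strand): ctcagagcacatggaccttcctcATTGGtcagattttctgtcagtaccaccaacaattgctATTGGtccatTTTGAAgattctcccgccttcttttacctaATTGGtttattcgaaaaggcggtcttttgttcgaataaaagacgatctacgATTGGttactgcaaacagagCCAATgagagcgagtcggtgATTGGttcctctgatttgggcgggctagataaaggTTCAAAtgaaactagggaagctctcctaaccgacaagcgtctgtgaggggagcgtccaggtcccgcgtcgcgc
Kif22 (chr7:127042371-127042670, minus strand): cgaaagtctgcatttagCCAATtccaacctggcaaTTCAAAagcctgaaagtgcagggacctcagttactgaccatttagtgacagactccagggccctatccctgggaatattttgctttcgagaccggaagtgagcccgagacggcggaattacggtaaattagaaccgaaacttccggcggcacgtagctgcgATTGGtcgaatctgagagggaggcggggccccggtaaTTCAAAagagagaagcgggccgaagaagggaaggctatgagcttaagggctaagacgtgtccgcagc
Mad2l1 (chr6:66534971-66535270, plus strand): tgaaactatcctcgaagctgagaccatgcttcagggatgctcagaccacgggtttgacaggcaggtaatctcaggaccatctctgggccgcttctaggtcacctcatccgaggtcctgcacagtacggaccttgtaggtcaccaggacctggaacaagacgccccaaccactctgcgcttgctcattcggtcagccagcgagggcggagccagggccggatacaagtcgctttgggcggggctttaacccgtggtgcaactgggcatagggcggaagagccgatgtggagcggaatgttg
Ube2c and Top2a each held 6 matches to CCAAT, with 1 and 2 to TTTGAA, Kif22 held 2 of each, and Mad2l1 held neither in this window. The window of Birc5, not printed, held neither as well. Of 28 tested mitosis genes with a window, 21 (75%) held CCAAT and 21 (75%) held TTTGAA, against 41.1% and 20.2% of all 27025 genes with a window. Of the 16 that rose and have a window the numbers were 12 (75%) and 11 (68.8%), so the genes that rose did not hold them more often than the whole list. A match is a run of letters, not evidence of binding.

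Keratinocyte genes were lower at day 1. Of 18 genes of the basal layer and hemidesmosome 12 fell and 2 rose (median -0.37), against 12.3% and 10.1% of all genes. Their summed intensity was 48341 to 53174 in day 1 skin, against 60517 to 64183 in day 0 skin. Plec, plectin, which ties keratin to hemidesmosomes, read 2328, 2693 and 2268 in day 1 skin, against 3439, 3562 and 3590.5 in day 0 skin (log2 change -0.54 ± 0.08 SE, adjusted p = 0.000412). Lamb3, a chain of the basement membrane laminin, read 754, 929 and 730.1 in day 1 skin, against 1246, 1384 and 1225 in day 0 skin (log2 change -0.66 ± 0.11 SE, adjusted p = 0.00128). Col17a1, a hemidesmosome collagen, changed by -0.45, Lama3 by -0.59, and the basal keratins Krt14 and Krt5 by -0.35 and -0.32. The integrin Itgb1, which many cell types make, was 1 of the 2 rises (0.63). Of 24 genes of differentiated epidermis and the cornified envelope 10 fell and 0 rose (median -0.25). Ivl, involucrin, read 58.6, 100.1 and 108 in day 1 skin, against 221, 226 and 217 in day 0 skin (log2 change -1.09 ± 0.21 SE, adjusted p = 0.00256). Cdsn, corneodesmosin, read 2324, 3203 and 2702 in day 1 skin, against 4641, 4392 and 4664 in day 0 skin (log2 change -0.74 ± 0.11 SE, adjusted p = 0.000384). The envelope proteins Evpl and Ppl fell by 0.74 and 0.53, and the protease gene Casp14 by 0.87. Of 20 desmosome and junction genes 9 fell and 0 rose, among them Pkp1 (-0.69), Pkp3 (-0.69), Dsg2 (-0.74) and the connexin Gjb5 (-0.82).

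These epidermal falls were mostly below 2-fold, and most of their calls were lost when the arrays were not scaled further, with falls of about the same size. Without further scaling 0 basal, 3 differentiation and 1 junction genes passed as lower, while the median changes were -0.30, -0.18 and -0.18, against 0.04 over all genes. Under quantile normalization 12, 11 and 9 of them fell. Krt5 lost its call without day 0 replicate 1 or 2 or day 1 replicate 1. The macrophage sum moved the other way on the same arrays, and its part in these falls was not tested.

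Keratins of wounded epidermis did not rise. Krt16 read 127, 91.0 and 83.7 in day 1 skin, against 181, 275 and 172 in day 0 skin (log2 change -0.85 ± 0.20 SE, adjusted p = 0.00793) and Krt17 read 1282, 1504 and 1728 in day 1 skin, against 2669, 2426 and 2096 in day 0 skin (log2 change -0.66 ± 0.14 SE, adjusted p = 0.00331). In the list of wound-type keratins and alarmins 5 of 18 genes fell and 2 rose, the protease receptor Plaur (0.66) and the fibronectin-binding integrin Itga5 (0.45), both also made by immune and dermal cells. Itga5 lost its call without day 0 replicate 1 or 3 or day 1 replicate 2 or 3. Among the falls, Itgav and Sprr1a lost their calls without day 0 replicate 1 or 2 or day 1 replicate 1. Another probe set of Itgav rose past the threshold (0.84), so the direction of that gene is not settled. Without day 0 replicate 2, 2 genes of the list fell. Of 21 genes of the follicle bulge and germ 7 fell and 0 rose, against 12.3% and 10.1% of all genes. Sox9, a transcription factor of follicle stem cells, read 149, 246 and 287 in day 1 skin, against 442, 451 and 433 in day 0 skin (log2 change -0.91 ± 0.16 SE, adjusted p = 0.00125), and its other probe set changed by -0.95. Dkk3 fell by 0.78 and the transcription factor Lhx2 by 0.58. Tnfrsf12a, the receptor of the cytokine TWEAK, which wounded skin is known to raise, read 78.3, 55.6 and 55.4 in day 1 skin, against 190, 171 and 291 in day 0 skin (log2 change -1.37 ± 0.23 SE, adjusted p = 0.000993), but its other probe set changed by -0.14 and did not pass.

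**Figure D3:**
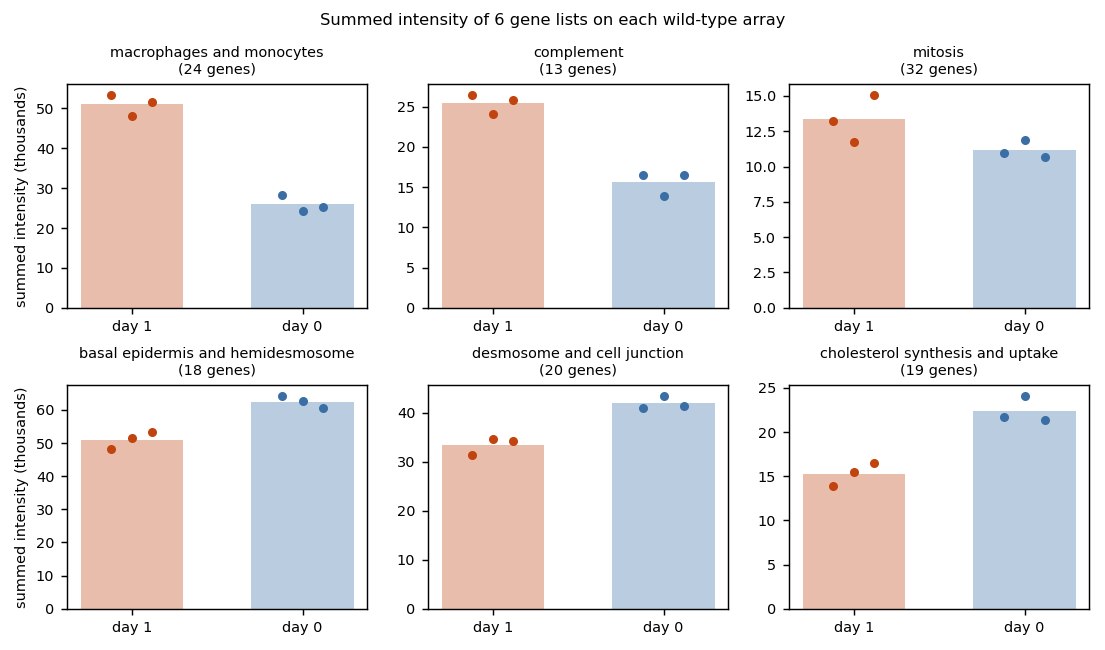
Summed scaled intensity (in units of 1000, axes from 0) of the tested genes of 6 lists on each wild-type array, day 1 left and day 0 right, with bars at the group means. The macrophage and complement sums of day 1 lie above all day 0 arrays, the basal epidermis, junction and cholesterol sums lie below them, and the mitosis sums overlap.

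Part of the genes of lipid and drug metabolism fell, where 12.3% of all genes did. Of 19 genes of cholesterol synthesis and uptake 9 fell and 0 rose (median -0.36), and the sum was 13894 to 16454 in day 1 skin, against 21327 to 24092 in day 0 skin. Msmo1, which removes methyl groups from sterols, read 1135, 1382 and 1423 in day 1 skin, against 2512, 3126 and 2783 in day 0 skin (log2 change -1.08 ± 0.12 SE, adjusted p = 5.7e-05). Hmgcs1, the synthase of hydroxymethylglutaryl coenzyme A, read 2451, 3167 and 3675 in day 1 skin, against 5209.7, 6081 and 5695 in day 0 skin (log2 change -0.88 ± 0.13 SE, adjusted p = 0.000401), but its other probe sets changed by -0.15, -0.10 and -0.31, none past the threshold. Dhcr7, the last enzyme of the pathway, changed by -0.82 ± 0.13 (SE, adjusted p = 0.000874). Msmo1, Hmgcs1 and Dhcr7 were the 3 of the list that also fell without further scaling. Of 25 genes of xenobiotic metabolism 9 fell and 1 rose. The cytochrome P450 gene Cyp2f2 read 2558, 3333 and 2629 in day 1 skin, against 4416, 4916 and 5090.5 in day 0 skin (log2 change -0.76 ± 0.13 SE, adjusted p = 0.000993), and Cyp2b10 (-0.64), Cyp1b1 (-0.58) and the glutathione transferase Gstm5 (-0.66) fell too. Cyp2f2 was the 1 xenobiotic gene that fell without further scaling. Of 22 fatty acid and sebaceous genes 4 fell and 0 rose, Elovl6, which lengthens fatty acids, by the most (-0.45), with 1 fall without day 0 replicate 1 and 0 without further scaling. Elovl6 was called with a single array left out only where that was day 1 replicate 3.

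Skeletal muscle genes were lower in part. Of 25 muscle markers 8 fell and 0 rose, with sums of 136043 to 159562 in day 1 skin, against 160081 to 186345 in day 0 skin. Lmod2, leiomodin, which builds actin filaments in striated muscle, read 157, 437 and 186 in day 1 skin, against 784, 929.6 and 948 in day 0 skin (log2 change -1.77 ± 0.28 SE, adjusted p = 0.00067). Ryr1, the calcium channel of the muscle store, read 2289.6, 2817 and 2911 in day 1 skin, against 4806, 5009.9 and 4182 in day 0 skin (log2 change -0.80 ± 0.17 SE, adjusted p = 0.00405). Mylk2, the myosin kinase of skeletal muscle, and Ankrd2, a stretch-sensitive muscle protein, were among the 20 largest falls (-1.13 and -1.27). Of 86 genes of the respiratory chain, its assembly and ATP synthase 10 fell and 2 rose, a share of falls near the 12.3% of all genes, and 3 fell without day 1 replicate 3. The larger falls held the muscle forms Cox6a2 (-0.63) and Cox8b (-0.55), with Cox8b not called without day 0 replicate 2 or day 1 replicate 1. Without day 1 replicate 1, and likewise without further scaling, 2 muscle markers fell. How much muscle was taken with the skin is not stated in the labels.

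Genes that answer stress and hormones quickly were lower where they passed. Maff, a small Maf protein and one of the 20 largest falls, read 8.33, 39.5 and 47.8 in day 1 skin, against 183, 198 and 197 in day 0 skin (log2 change -1.87 ± 0.23 SE, adjusted p = 0.000161). Of 24 immediate early genes 6 fell and 0 rose, against 12.3% and 10.1% of all genes. Among the falls were Dusp1 (-0.74), a phosphatase of stress kinases, Fosb (-0.85) and Ier3 (-0.52). Ier3 lost its call without day 0 replicate 1 or day 1 replicate 1. Without day 1 replicate 1, 3 fell, and with other single arrays left out up to 10. Without further scaling 2 fell, and Dusp1 and Ier3 lost their calls. Fos itself did not pass (log2 change -0.11 ± 0.17 SE, adjusted p = 0.674). Of 17 glucocorticoid-responsive genes 6 fell and 0 rose, against the same shares of all genes. Tsc22d3, the glucocorticoid-induced leucine zipper, read 1748, 1589 and 1659.8 in day 1 skin, against 2384, 2505 and 3087 in day 0 skin (log2 change -0.66 ± 0.14 SE, adjusted p = 0.00418), and its other probe sets changed by -0.59 and -0.11. Klf15 fell by 0.56 and Klf9 by 0.30, and Klf15 lost its call without day 0 replicate 1 or 2 or day 1 replicate 3, and Klf9 without any array but day 0 replicate 3. Of this list 0 fell without further scaling and 2 without day 0 replicate 2. Foxo3, a transcription factor of growth and stress signalling, read 579.9, 505 and 604 in day 1 skin, against 1251, 1319 and 1225 in day 0 skin (log2 change -1.13 ± 0.14 SE, adjusted p = 0.000172), while its other probe set changed by 0.03.

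Clock genes are the repressors, activators and output factors of the circadian cycle, and the labels do not state the hour at which skin was taken. Of 17 tested 5 fell and 0 rose (median -0.30), against 12.3% and 10.1% of all genes. Per2, a repressor, read 267, 306 and 238 in day 1 skin, against 410, 550.3 and 593 in day 0 skin (log2 change -0.85 ± 0.14 SE, adjusted p = 0.000998). Per3 changed by -0.65 ± 0.11 (SE, adjusted p = 0.00111), the activator Rora by -0.59, and the output factors Hlf and Tef by -0.53 and -0.31. Other probe sets gave -0.14 for Per2, 0.18 for Per3, -0.02 and 0.23 for Rora and 0.90 for Tef, none past the threshold. Tef lost its call without day 0 replicate 1. Without further scaling 1 clock gene fell, Per2, and Per3, Rora, Hlf and Tef lost their calls. Arntl (log2 change -0.01 ± 0.16 SE, adjusted p = 0.979), Per1 (log2 change -0.05 ± 0.18 SE, adjusted p = 0.87) and Dbp (log2 change -0.36 ± 0.18 SE, adjusted p = 0.169) did not pass. Of 14 clock genes with a promoter window 3 held the E-box CACGTG (21.4%, against 8.09% of all genes) and 2 the D-box TTATGNAA (14.3%, against 3.99%). For chemokines, 1 of 13 held GGANTTTCC, the kappa B motif (7.69%, against 1.45%), and 4 held TGANTCA, the AP-1 motif (30.8%, against 8.97%). Of the members that changed and have a window, 1 of 4 clock genes that fell held each clock motif, and of 4 chemokines that rose 0 held the kappa B motif and 1 the AP-1 motif. No window was at hand for Ccl2 and Ccl7.

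Several lists gave few calls in number, where 10.1% of all genes rose and 12.3% fell. No red blood cell marker was bright enough to be tested. Markers of fat cells (19 genes), Schwann cells and nerve (9) and proteasome subunits (37) had 0 members past the threshold in limma. Of 48 cytosolic ribosomal proteins and their paralogs 3 fell, and of 12 oestrogen-responsive genes of uterus and breast 1 fell, Wnt4 (-0.38), not called without day 0 replicate 2. Among 14 Wnt and β-catenin targets Sox4 rose (0.29) and Axin2 fell (log2 change -0.32 ± 0.09 SE, adjusted p = 0.0192). Axin2 was not called without further scaling, without day 0 replicate 3 or without day 1 replicate 1, and Sox4 was called with a single array left out only where that was day 0 replicate 2. Ctnnb1, which encodes β-catenin, changed by -0.19 ± 0.07 (SE, adjusted p = 0.0555). Pericyte and smooth muscle markers gave 4 falls in 15 genes, a larger share than that of all genes. Without day 0 replicate 2, 1 fell, and without further scaling 0 fell. Hair shaft and inner root sheath genes gave 3 falls in 25, near the 12.3% of all genes, and heat shock genes 1 rise and 2 falls in 25. Melanocyte markers gave 2 rises and 1 fall in 11, and ducts and sebocytes 2 rises in 8, of Krt8 and Aqp5. Both shares of rises were above that of all genes. Krt8 stood apart on 1 array, with 625, 163 and 161 in day 1 skin, against 86.9, 119.8 and 104 in day 0 skin, and lost its call without day 0 replicate 1. Xist, which marks female cells, read 6239, 5433 and 7907 in day 1 skin, against 6404, 6416 and 6537 in day 0 skin.

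To see whether these changes lasted, wild-type day 7 was tested against day 1 in the same fit. Of 9058 genes 278 differed (3.07%), 148 higher (1.63%) and 130 lower (1.44%). The comparison shares the day 1 arrays with the one above, so values are set side by side. Klk1 averaged 15.3, 1656 and 5151 at days 0, 1 and 7, and rose by 1.62 between the last pair (adjusted p = 0.00893). Klk1b21 averaged 46.0, 246 and 1352. In the kallikrein list 6 of 9 genes were higher at day 7 than at day 1. Ccl12 averaged 101, 670.5 and 189, lower at day 7 than at day 1 by a log2 change of -1.65 (adjusted p = 4.48e-05), and Ccl7 (-1.52), Ccl2 (-1.26), Pgf (-1.40) and Chil3 (-1.71) were lower too. The macrophage sum was 24365 to 28221, 48157 to 53339 and 55379 to 55897 at days 0, 1 and 7. Of the 24 markers 1 was lower at day 7 than at day 1, Msr1 (-1.05). Mrc1 averaged 2404, 6177 and 5777.

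Replication genes differed between day 7 and day 1, and mitosis genes gave no calls. Of 28 replication genes 13 were lower at day 7 than at day 1 and 0 higher, and Mcm5 averaged 274, 468 and 173, while 0 of 32 mitosis genes passed in either direction. Among keratins, Krt16 averaged 209, 101 and 515 (2.05, adjusted p = 0.000184), and 5 of 18 genes of the wound-type list were higher at day 7 than at day 1. Tnfrsf12a averaged 217, 63.1 and 381. Clock genes were split at day 7, with 3 higher and 6 lower than at day 1. Per2 averaged 518, 271 and 58.0, Dbp 2004, 1549 and 394, and Arntl 201, 197 and 412. With 1 of the 2 day 7 arrays left out, 35 genes (without replicate 1) or 131 genes (without replicate 2) differed between day 7 and day 1. The lone day 7 array is then assumed to vary like the other groups, and so few arrays call fewer genes.

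**Figure D4:**
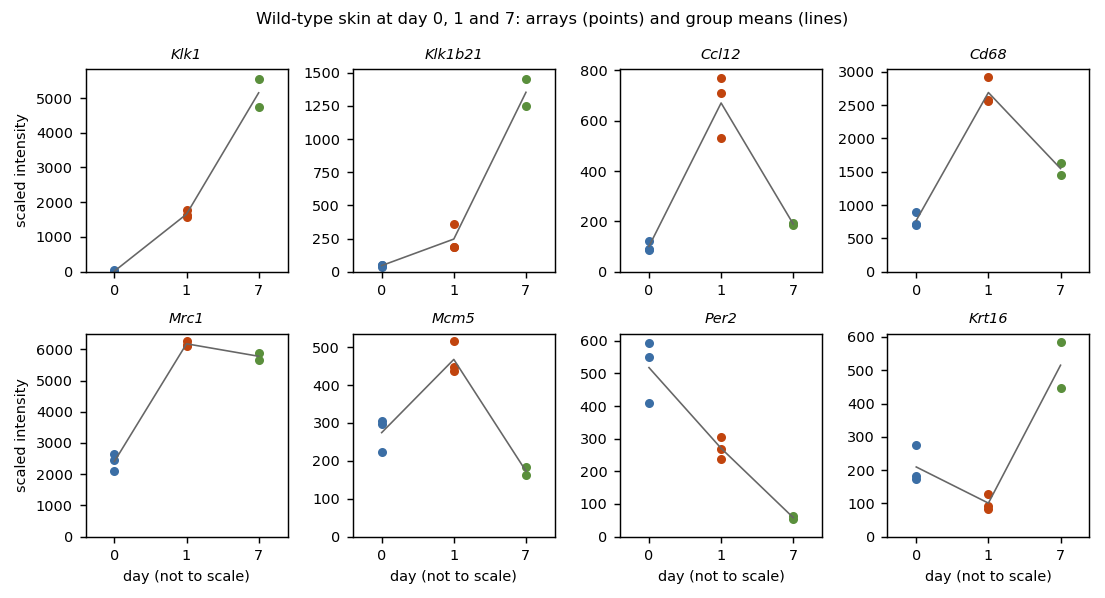
Scaled intensity of 8 genes on each wild-type array at days 0, 1 and 7 (3, 3 and 2 arrays), with lines through the group means and axes from 0. Klk1 and Klk1b21 are highest at day 7, Ccl12 and Mcm5 at day 1, and Per2 is lowest and Krt16 highest at day 7.

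Transgenic skin was set beside wild-type skin to see which changes occurred without the transgene. The 2 comparisons share no array. Of the 911 genes that rose in wild-type skin, 371 (40.7%) rose in transgenic skin, which is 62.2% of the 596 rises there, while 6.58% of all genes rose in transgenic skin. Of the 1112 falls 172 (15.5%) were shared, which is 45.4% of the 379 falls in transgenic skin, where 4.18% of all genes fell. Klk1 changed by 5.25 in wild-type and 6.01 in transgenic skin, Lyve1 by 2.66 and 2.61, Ccl12 by 2.40 and 1.71, and Cd68 by 1.77 and 1.23. Macrophage markers rose in 20 of 24 genes in wild-type and 16 of 24 in transgenic skin. Basal epidermis genes fell in 12 of 18 in wild-type and 1 of 18 in transgenic skin, but the change itself differed between genotypes for 1 of the 18 genes, Plec.

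The test of that difference, wild-type minus transgenic change, gave 25 genes (0.276%), 16 higher (0.177%) and 9 lower (0.0994%). Tnfrsf12a differed by -1.81 ± 0.34 (SE, adjusted p = 0.038), with transgenic arrays at 338, 436 and 459 at day 1 and 258 and 330 at day 0. Msmo1 differed by -1.0 ± 0.18 (SE, adjusted p = 0.0344), having changed by -0.08 in transgenic skin, and Plec by -0.67 ± 0.12 (SE, adjusted p = 0.0344). Mt2, a metallothionein, differed by -1.07 ± 0.20 (SE, adjusted p = 0.038). Cdr2l differed by -1.65 ± 0.27 (SE, adjusted p = 0.0283) and the chromatin demethylase Kdm7a by 1.37 ± 0.19 (SE, adjusted p = 0.0173). The number of genes was 0 without wild-type day 0 replicate 2 or without transgenic day 1 replicate 1, with 1115 and 1382 genes at an unadjusted p under 0.05 in limma. It was also 0, with 975 at an unadjusted p under 0.05, without transgenic day 0 replicate 2, which leaves that group 1 array assumed to vary like the others. Erdr1, a repeated gene of the sex chromosomes, changed by 2.17 ± 0.42 (SE, adjusted p = 0.00231) in wild-type skin and by -0.82 in transgenic skin (adjusted p = 0.276), and the difference did not pass (adjusted p = 0.0605).

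**Figure D5:**
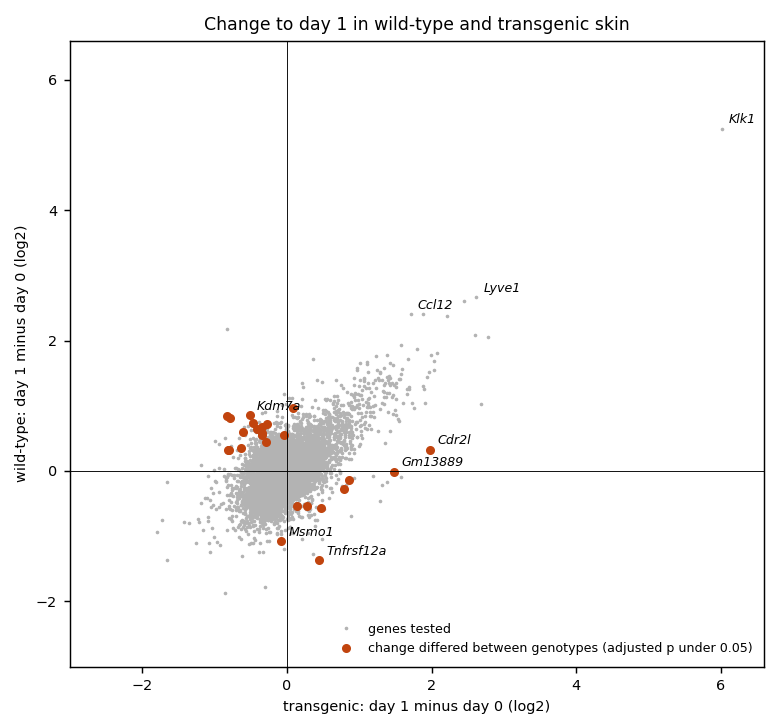
Log2 change from day 0 to day 1 in wild-type skin (vertical axis) against that in transgenic skin (horizontal axis) for 9058 genes, with the 25 genes whose change differed between genotypes as large points. Klk1 lies at the top right with 5.25 in wild-type and 6.01 in transgenic skin.

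Probe sets of 1 gene agreed in part. Genes past the threshold had 1102 other kept probe sets, of which 818 moved the same way, 365 of them past the threshold, and 284 the other way, 32 of them past it, in 28 genes. Other probe sets of genes among the 20 largest falls gave 0.03 for Foxo3, -0.05 for Ece1, -0.01 and -0.57 for Hip1r and -0.39 for Wwc1, none past the threshold. Hip1r lost its own call without day 1 replicate 1 or any of the day 0 arrays. Those of the largest rises gave 1.35 for Ncf1 and 1.07 for Ednrb, both past it. The median change over all genes also varied with signal, from 0.10 in the dimmest 10% of genes to -0.05 in the brightest 10%. The calls varied too. In the dimmest 10%, 92 of 906 genes rose and 45 fell, and in the brightest 10%, 87 of 906 rose and 162 fell. The lists are set against all genes tested, not against genes of like signal. Splicing, probe affinity and cross-hybridisation were not tested as sources of these differences.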

How the data were processed

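Total RNA from whole mouse skin was extracted with Trizol and biotinylated cRNA was hybridised to Affymetrix mouse arrays, per the labels' protocols. The authors deposited 1 linear intensity per probe set and array; the summarisation software and any scaling are not given in the sources used here. Intensities on the 16 arrays had 2%-trimmed means of 359 to 547 and were scaled here to a common trimmed mean (factors 0.825 to 1.26). With 3 arrays a group, precision is set by their number.

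Of 22626 probe sets other than controls, the 15058 above their array's 40th percentile on at least 2 arrays were kept. Symbols came from the platform annotation (20380 probe sets with 1 symbol, 691 with several, 1555 with none), and the brightest kept probe set stood for each of 9058 genes. Group means of all 16 arrays were fitted to log2(intensity + 32) with limma 3.58.1 in R 4.3.3 (variance trend, 10 residual degrees of freedom), and p-values were adjusted by Benjamini-Hochberg over all genes, with a threshold of 0.05. All adjusted p-values in the text are limma's. The fit was tested on simulated data for day 1 against day 0 over 9058 genes, with 200 changed in each of 5 runs. It recovered 64.53% of 1.5-fold, 92.45% of 2-fold and 99.38% of 4-fold changes, with 4.27% of calls false. Noise was drawn for each gene apart, with no error shared across an array, and fewer genes changed than the 2023 called in the data. The false share among the calls in the data may therefore differ.

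Genes are named by rule: up to 20 of the largest rises and falls whose groups do not overlap, up to 6 members of each of 47 lists by smallest p (up to 2 of the brightest where none passed), up to 5 genes higher and 5 lower in the genotype difference, and a fixed set. Gapdh of that set had no single-symbol probe set among those tested. The comparison, the 32 lists of programs and the 15 of cell type markers (46 of the 47 with a tested member) were chosen with earlier results of these data known. Promoters are RefSeq windows on GRCm38.p6, matched by symbol and read with Python 3.11.15, and were aligned with Biopython 1.88. Alternatives covered scaling, the added value, the filter, probe sets, the variance model, the replicate block and arrays left out.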

Additional observations from a re-analysis of the deposited data

Results flagged for a closer look

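In 12 named genes the change to day 1 differed between wild-type and transgenic skin by the interaction term in limma. Wild-type minus transgenic log2 differences above 0 were 1.37 ± 0.19 for Kdm7a (SE, adjusted p = 0.0173), 1.67 ± 0.31 for 6820431F20Rik (adjusted p = 0.0375), 1.60 ± 0.25 for Wdfy3 (adjusted p = 0.0283), 1.21 ± 0.20 for Ugcg (adjusted p = 0.0283) and 1.20 ± 0.23 for Myhas (adjusted p = 0.038). Each of these genes had a change above 0 in wild-type and below 0 in transgenic skin. Another probe set of Ugcg changed by -0.46 in wild-type skin, past the threshold and opposite to the one used, so the gene's direction is not settled.

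Differences below 0 were -1.65 ± 0.27 for Cdr2l (SE, adjusted p = 0.0283), -1.50 ± 0.30 for Gm13889 (adjusted p = 0.0434), -1.07 ± 0.20 for Mt2 (adjusted p = 0.038), -0.67 ± 0.12 for Plec (adjusted p = 0.0344), -1.03 ± 0.19 for Bcl2l1 (adjusted p = 0.0375), -1.0 ± 0.18 for Msmo1 (adjusted p = 0.0344) and -1.81 ± 0.34 for Tnfrsf12a (adjusted p = 0.038). Cdr2l and Gm13889 changed by 0.33 and -0.01 in wild-type skin, against 1.98 and 1.49 in transgenic skin, while Msmo1 changed by -1.08 in wild-type skin, against -0.08 in transgenic skin. With any one of 3 arrays left out, 0 genes passed for this difference. They were replicate 2 of wild-type day 0 and, in transgenic skin, replicate 2 of day 0 and replicate 1 of day 1, and 1115, 975 and 1382 genes had an unadjusted p under 0.05 in limma.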

How the results depend on the processing

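For day 1 against day 0, 2023 genes passed, and 1761 to 2057 under quantile or median scaling, added values of 8 or 100, no or a stricter filter, no variance trend and the 6 arrays alone. With no further scaling 469 passed, and the gene lists held 119 calls, against 269, and 3163 of 15058 probe sets passed one by one. Leaving out single arrays gave 1176 to 1813 (1176 without wild-type day 1 replicate 1, 1220 without wild-type day 0 replicate 2). Of the 911 rises 247, and of the 1112 falls 63, passed under all 16 alternatives, and none turned direction; these counts of shared genes were chosen after seeing the data, as were the counts per list.

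Day 7 against day 1 gave 278 genes, 74 with no further scaling, 182 with the groups alone and 35 to 208 without single arrays (35 without wild-type day 7 replicate 1, 131 without wild-type day 7 replicate 2, 119 without wild-type day 1 replicate 1). The genotype difference gave 25 genes, 7 with no further scaling, 8 with no filter, 45 by probe set, 15 with no variance trend, 12 with the groups alone and 0 to 15 without single arrays. The 0 in limma arose without wild-type day 0 replicate 2 (1115 genes at an unadjusted p under 0.05), and without day 0 replicate 2 (975) or day 1 replicate 1 (1382) of transgenic skin. Where a group of 2 arrays (wild-type day 7, transgenic day 0) loses 1, the lone array is assumed to vary like the other groups. The causes were not tested.

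Same-numbered day 1 and day 0 arrays deviated together with r of 0.109, 0.158 and -0.012, and differently numbered ones with r of -0.181 to 0.045. Replicates 1 and 2 thus gave higher values with their own number than any differently numbered arrays did. The main fit did not pair the arrays by number, and a shared effect of replicates 1 and 2 is not excluded. With the replicate block 1872, 123 and 4 genes passed in the 3 comparisons, against 2023, 278 and 25 without it. Of 220 named genes past the threshold 113 passed under every alternative that kept them, and 0 reversed. A dim signal, such as Klk1 at day 0, sets only a rough level.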
